A study of Mus musculus with 8 samples.

Results

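Spermatogonial stem cells and the niche factors that keep them were followed through 7 genes, of 18194 genes with a symbol on the array. The members are Kitl and Gdnf, which encode secreted or membrane-bound ligands, Kit and Gfra1, which encode receptors, and Zbtb16, Foxo1 and Id4, which encode nuclear factors of the spermatogonial lineage. They were taken by symbol with every probe set that carries it, which gave 20 probe sets of 45101. Of these, 15 reached log2 4, an intensity of 16, on at least 2 arrays and were tested. The other 5 did not pass this filter, and among them is the only probe set of Gdnf, which reached the floor on 1 array.

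Whole testes were taken at postnatal day 28 from male mice of a mixed C57BL6/6J and 129 background, and their total RNA was hybridized. All 8 arrays are from mice with both copies of Dmrt1 floxed, and Dmrt1 encodes a DM-domain transcription factor of Sertoli and germ cells. The controls carried no Cre (n = 2). One mutant group is Dmrt1 flox/flox with Dhh-cre (n = 2) and the other Dmrt1 flox/flox with SF1-cre (n = 4), written Dhh-Cre and Sf1-Cre here. The submitters describe both as Sertoli cell knockouts and the arrays as biological replicates. Sf1, also called Nr5a1, is active in Leydig cells as well, so this driver is not limited to Sertoli cells.

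In the testis, Sertoli cells feed the stem cell pool by secreting GDNF, which binds GFRA1 on undifferentiated spermatogonia and signals through RET. Spermatogonia that leave the pool switch on the receptor tyrosine kinase KIT, whose ligand, KIT ligand, is also made by Sertoli cells. ZBTB16 (also called PLZF), FOXO1 and ID4 mark undifferentiated spermatogonia, and ID4 acts by tying up E proteins so that they cannot bind DNA.

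Dmrt1 itself was read first, as a check of the labels. The 2 control arrays read 361 and 433 intensity units, while the others read 137, 237, 198 and 185 in the Sf1-Cre arrays, and 1377 and 979 in the arrays labelled Dhh-Cre. The Dhh-Cre arrays were thus above the controls. Whether this probe set reads inside the deleted part of Dmrt1 is unknown, so its level does not settle the label, and every direction that involves these arrays rests on that label. The median over all probe sets was 13.7 and 14.1 intensity units for the controls, and 15.2 to 15.9 for the 6 mutant arrays. The columns of Sf1-Cre replicates 3 and 4 hold 0 values rounded to 3 significant digits, while 11.4% to 11.5% of values are rounded in the other 6. The sources used here do not say why. The 3′ to 5′ signal ratio of Actb ran from 4.44 to 4.89 without Cre and from 9.45 to 13.6 with it, and its part in the results was not tested.

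The bases before the starts of Kitl, Foxo1, Gfra1 and Id4 are shown because every tested probe set of the first 2 rose and of the last 2 fell, on the deposited scale, against the controls. Each run is the 250 bases before the gene's first listed start on its own strand, from RefSeq on GRCm38.p6, and 6 of the 7 members matched that table. Capitals mark matches to TATAAA (gene strand), or to GGGCGG or CAGCTG on either strand, where CCGCCC is GGGCGG on the opposite strand. Kitl lies at chr10:100015571-100015820 on the plus strand, with 206 of its 250 bases inside the annotated gene span, which begins at position 100015615. Foxo1 lies at chr3:52268087-52268336 on the plus strand. Gfra1 lies at chr19:58455399-58455648 on the minus strand, with all 250 bases inside the annotated gene span, which reaches to position 58455946. Id4 lies at chr13:48260866-48261115 on the plus strand. The Foxo1 and Id4 windows have 0 bases inside their spans.
Kitl: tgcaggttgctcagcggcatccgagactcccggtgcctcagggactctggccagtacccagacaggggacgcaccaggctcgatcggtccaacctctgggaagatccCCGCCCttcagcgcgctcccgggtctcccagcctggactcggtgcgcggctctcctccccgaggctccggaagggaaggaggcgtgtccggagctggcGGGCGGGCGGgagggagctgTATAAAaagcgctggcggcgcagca
Foxo1: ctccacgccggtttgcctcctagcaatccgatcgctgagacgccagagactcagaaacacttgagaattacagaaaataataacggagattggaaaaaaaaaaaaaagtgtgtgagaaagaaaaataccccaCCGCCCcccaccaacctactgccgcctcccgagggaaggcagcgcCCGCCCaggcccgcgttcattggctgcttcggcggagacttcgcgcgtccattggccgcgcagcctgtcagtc
Gfra1: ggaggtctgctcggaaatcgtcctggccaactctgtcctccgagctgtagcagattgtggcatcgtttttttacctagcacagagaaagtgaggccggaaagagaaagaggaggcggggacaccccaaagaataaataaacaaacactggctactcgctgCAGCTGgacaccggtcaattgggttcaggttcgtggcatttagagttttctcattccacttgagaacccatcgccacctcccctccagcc
Id4: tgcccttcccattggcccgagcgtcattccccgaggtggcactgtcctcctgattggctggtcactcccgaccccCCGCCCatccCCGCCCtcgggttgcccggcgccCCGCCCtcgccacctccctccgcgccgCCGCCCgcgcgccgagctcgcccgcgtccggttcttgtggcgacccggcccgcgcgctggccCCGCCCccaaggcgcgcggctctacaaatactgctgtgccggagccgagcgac

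The Kitl window holds a TATA box, TATAAA, 25 bases before the listed start, and 3 GC boxes, GGGCGG, of which the 2 nearest the start share bases. TATAAA occurred on the gene strand in 7.59% of 32851 windows of the same length, and GGGCGG on either strand in 32.7%. The Id4 window holds 5 GC boxes and 75.6% G and C, against a median of 52.4% over all windows. The Foxo1 window holds 2 GC boxes, and the Gfra1 window holds 1 E-box, CAGCTG, the kind of site that partners of ID proteins bind, 90 bases before the start (13% of windows have one). The DM-domain core ACAATGT (2.56% of windows) and the FOXO site GTAAACA (3.17%) were searched on both strands and are not in the windows of the 6 matched members. These matches describe letters in a window only.

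In both mutant groups against the controls, the ligand gene Kitl rose most, the receptor gene Gfra1 and Id4 fell, and Zbtb16 and Foxo1 rose by less on the deposited scale. Kit gave different answers by its 2 probe sets. In Sf1-Cre against control, 10 of the 15 tested member probe sets were higher (Kitl, Kit, Foxo1, Zbtb16), 4 were lower (Gfra1, Id4) and 1 was not called, so 14 were called. The same test called 77.5% of 25791 probe sets, 45.9% as higher and 31.6% as lower, so a large share called is the rule here. In Dhh-Cre against control, 9 were higher, 5 lower and 1 was not called, where 77.9% of all probe sets were called, 49.1% higher and 28.8% lower. Both comparisons share the 2 control arrays. The median log2 fold change of the tested member probe sets was 1.32 in Sf1-Cre and 1.25 in Dhh-Cre, beside 0.36 and 0.57 over all probe sets tested. Genes with several probe sets, such as Kitl, weigh more in it. With 1 probe set for each of the 6 tested genes the medians were 1.48 and 0.56, the latter near that over all probe sets. Of the 15, 6 passed the floor only in mutant arrays and 2 only in control arrays, and those could hardly fail to differ. These calls are limma's, with p adjusted by Benjamini-Hochberg over all 25791.

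**Figure D1:**
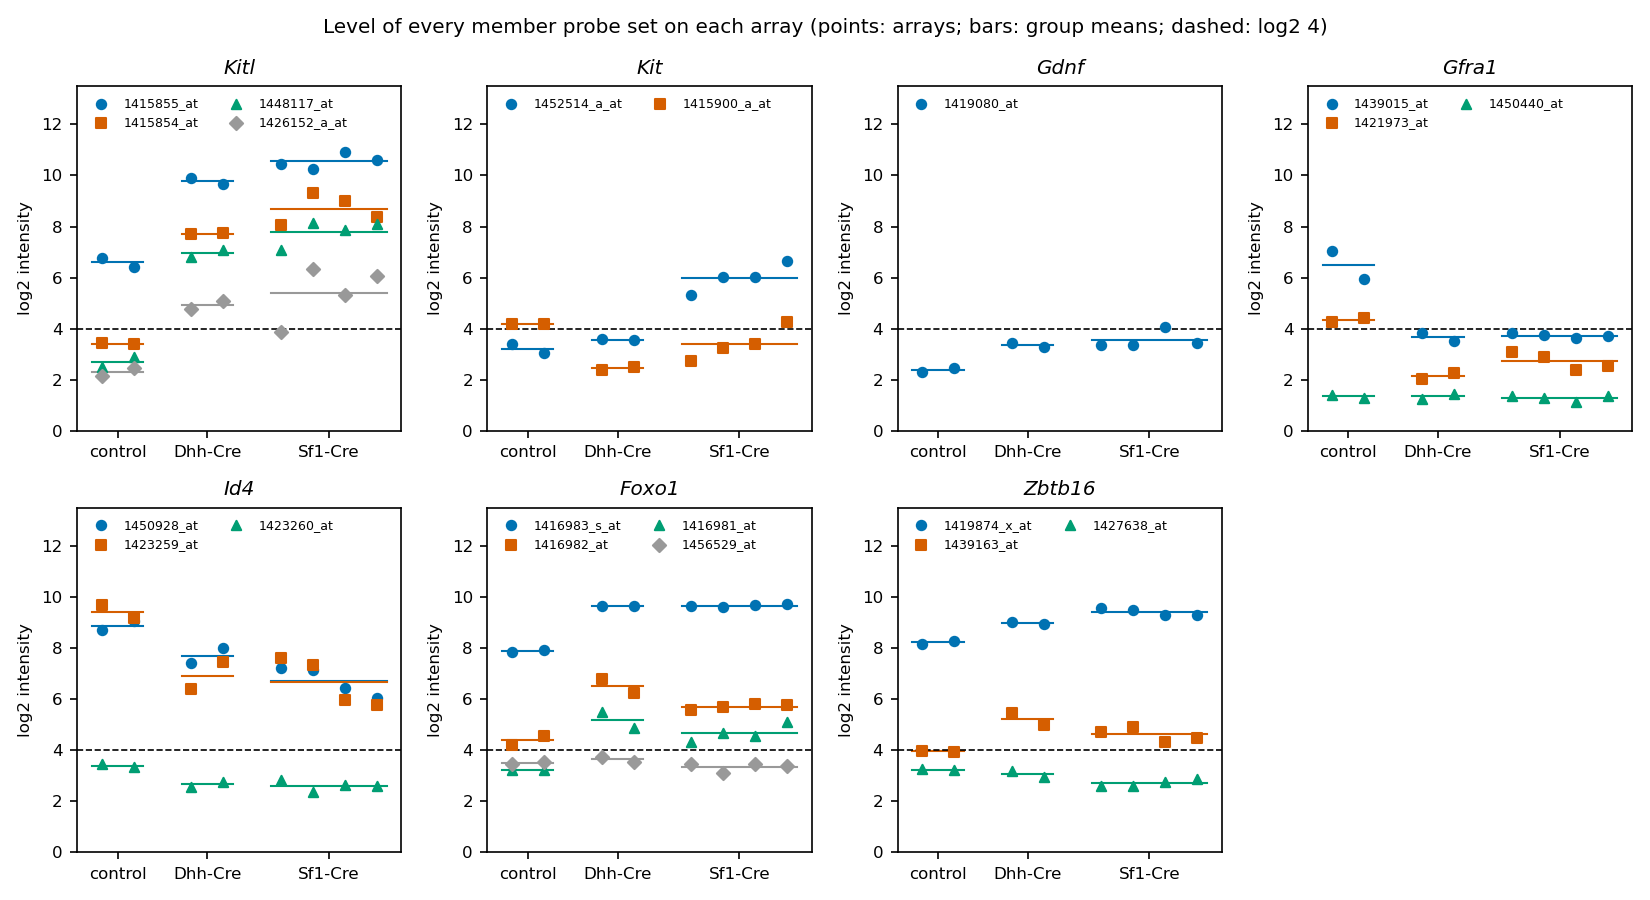
Log2 intensity of each of the 20 member probe sets (y) on each of the 8 arrays (x, by group), with a symbol per probe set, a bar for each group mean and a dashed line at the floor of log2 4. Kitl lies above its controls in all 6 mutant arrays by all 4 probe sets, and Gfra1 and Id4 lie below theirs by each tested probe set. The 2 Kit probe sets differ in their step from the controls.

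Scale matters for how far these directions carry. The 13 tested genes of a housekeeping list themselves moved by a median of 0.78 in Sf1-Cre and 0.76 in Dhh-Cre, with 10 and 11 of them higher. Subtracting each array's median housekeeping level shifted the median of all probe sets by -1.70 in Sf1-Cre, and the share of calls that were higher went from 59.2% to 16%. In Dhh-Cre it went from 63.0% to 17.1%. That step is larger than the list's own change, and subtracting the median deviation of those genes instead shifted the median by -0.90 and -0.86 and gave shares of 33.0% and 39.5%. On each of these scales the Kitl probe sets kept a positive and the Gfra1 and Id4 probe sets a negative log2 fold change against control, while Zbtb16 turned under the first, and by 1 probe set in each group under the second. Foxo1 lost its call or turned under the first by all 3 tested probe sets in both groups. Under the second it lost its call in Sf1-Cre by 1416981_at (0.53, limma adjusted p = 0.0602) and by 1416982_at (0.42, limma adjusted p = 0.0674).

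**Figure D2:**
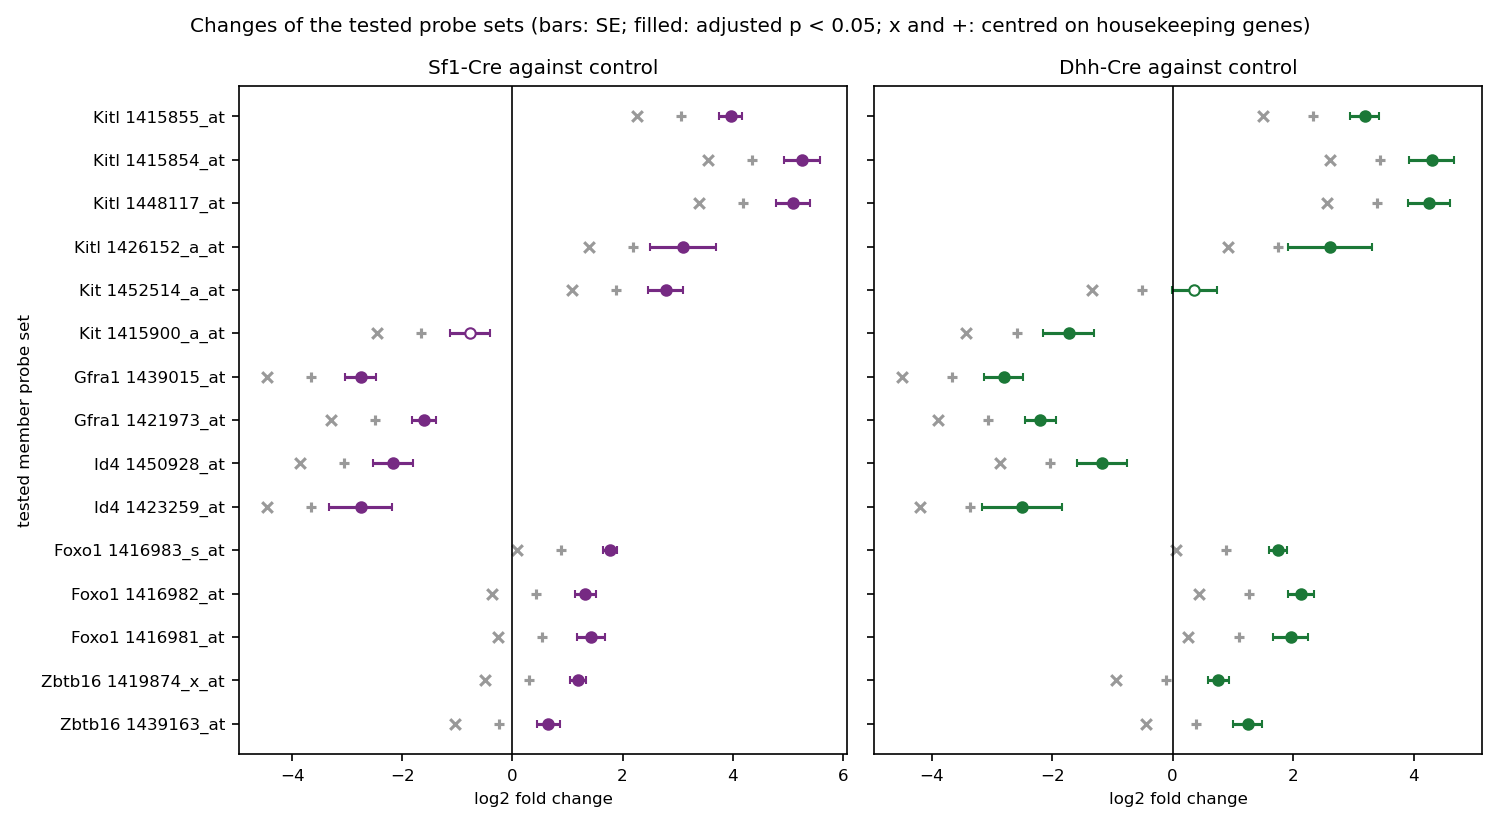
Log2 fold change against control (x) of the 15 tested member probe sets (y) in Sf1-Cre on the left and Dhh-Cre on the right, with bars for limma's SE, filled points for adjusted p under 0.05, and crosses (x) and pluses (+) for the value after centring on the level or on the gene-wise deviation of housekeeping genes. Kitl stays right of 0 and Gfra1 and Id4 left of 0 under both centrings, while Zbtb16 crosses 0 under the first centring and Foxo1 lies between -0.37 and 0.44 there.

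Kitl encodes KIT ligand, also called stem cell factor. Its brightest probe set, 1415855_at, gave intensities of 109 and 85.6 without Cre, 948 and 818 in Dhh-Cre, and 1400, 1230, 1914 and 1577 in Sf1-Cre. All 4 Sf1-Cre arrays lay above both Dhh-Cre arrays, and those lay above both controls. The log2 mean went from 6.59 ± 0.25 (SD, n = 2) to 10.56 ± 0.27 (SD, n = 4) in Sf1-Cre, a 15.6-fold rise (log2 fold change 3.97 ± 0.21 SE, limma with Benjamini-Hochberg adjusted p = 1.518e-06). In Dhh-Cre it rose 9.12-fold (3.19 ± 0.24 SE, limma adjusted p = 1.153e-05).

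The other Kitl probe sets started near or under the floor. Probe set 1415854_at read 10.9 and 10.5 in the controls, 209 and 214 in Dhh-Cre, and 265, 628, 509 and 332 in Sf1-Cre. It was at least 25.6-fold higher in Sf1-Cre and at least 13.2-fold higher in Dhh-Cre. Probe set 1448117_at was at least 13.9-fold and 7.74-fold higher, from 5.68 and 7.43 in the controls to 114 and 135 in Dhh-Cre and 135 to 281 in Sf1-Cre. The dimmest, 1426152_a_at, ranged from 14.7 to 80.3 within Sf1-Cre, against 4.49 and 5.45 in the controls. Its fitted log2 fold changes were 3.09 ± 0.60 SE and 2.62 ± 0.69 SE, and neither was called once values under log2 4 were set to 4 (limma adjusted p = 0.0674 and 0.265). All 4 Kitl probe sets therefore pointed the same way, and 3 of them kept their call against control in every alternative that tested them, though 1415854_at and 1448117_at passed the floor only in mutant arrays.

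Between the mutant groups, Kitl by 1415855_at was 1.71-fold higher in Sf1-Cre (0.78 ± 0.21 SE, limma adjusted p = 0.0343). That call was lost in 7 of 20 alternatives. These include the fits without Dhh-Cre replicate 1 (0.88), Dhh-Cre replicate 2 (0.67), Sf1-Cre replicate 3 (0.66, limma adjusted p = 0.0648) or Sf1-Cre replicate 4 (0.76, limma adjusted p = 0.0536). They also include the replicate number as a block (0.58, limma adjusted p = 0.0969) and leaving out the 2 arrays with no rounded values (0.58, limma adjusted p = 0.0921). The other 3 Kitl probe sets gave 0.96, 0.84 and 0.48 and were not called. As the tissue is bulk, more or fewer cells of a type and more or less RNA per cell cannot be told apart, for Kitl and for every gene below.

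Gdnf encodes glial cell line-derived neurotrophic factor, the main self-renewal signal for the stem cells. Its probe set 1419080_at had log2 levels of 2.29 and 2.45 in the controls, 3.46 and 3.27 in Dhh-Cre, and 3.35, 3.37, 4.07 and 3.43 in Sf1-Cre. Only Sf1-Cre replicate 3 reached the floor, so the gene was not tested and no fold is given.

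Kit encodes the receptor of KIT ligand. Probe set 1452514_a_at read 10.6 and 8.19 in the controls, 12.2 and 11.7 in Dhh-Cre, and 39.8, 64.5, 65.4 and 99.4 in Sf1-Cre. The 4 Sf1-Cre arrays stand clear of the other groups, which both lie under the floor. This probe set was at least 3.99-fold higher in Sf1-Cre than in the controls (log2 fold change 2.78 ± 0.32 SE, limma adjusted p = 8.709e-05), and was not called in Dhh-Cre (0.36 ± 0.37 SE, limma adjusted p = 0.396). The Dhh-Cre value turned to -1.34 under housekeeping centring and was called as lower there (limma adjusted p = 0.0032), and to -0.50 without a call under gene-wise centring (limma adjusted p = 0.195), with both groups under the floor. Sf1-Cre lay at least 3.99-fold above Dhh-Cre as well (2.42 ± 0.32 SE, limma adjusted p = 0.00253). Only the Sf1-Cre arrays took this probe set past the filter, so it could hardly fail to differ from either group.

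Both Kit probe sets ranked the 4 Sf1-Cre arrays in the same order, but probe set 1415900_a_at differed in its step from the controls. It read 18.3 and 18 in the controls, 5.27 and 5.69 in Dhh-Cre, and 6.72, 9.43, 10.5 and 19.4 in Sf1-Cre. Sf1-Cre replicate 4 lay above both controls, so these groups overlapped, whereas both Dhh-Cre arrays lay below. It was not called in Sf1-Cre (-0.77 ± 0.36 SE, limma adjusted p = 0.0823) and was lower in Dhh-Cre (-1.73 ± 0.42 SE, limma adjusted p = 0.00519). The Sf1-Cre value passed as lower in 7 alternatives. These were quantile normalization (-0.91, adjusted p = 0.0437), array weights (-0.75, adjusted p = 0.0293), the replicate block (-1.19, adjusted p = 0.00511), housekeeping centring (-2.46) and gene-wise centring (-1.67), and the fits without replicate 4 (-1.06, adjusted p = 0.00282) and without both arrays that have no rounded values (-1.19). The Dhh-Cre fall is one of dim values, at least 1.13-fold, and was not called with values under log2 4 set to 4 (adjusted p = 0.245).

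In each group, the mean of at least 1 of the 2 Kit probe sets lay under the floor, so the size of the gap between them is not read. The sources used here do not say which Kit transcripts each probe set reads.

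**Figure D3:**
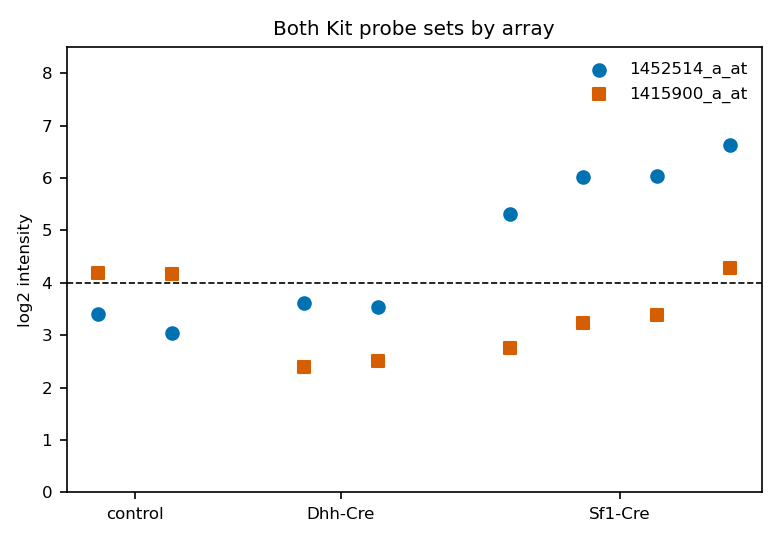
Log2 intensity (y) of the 2 Kit probe sets on each of the 8 arrays by group (x), with the floor of log2 4 dashed. By 1452514_a_at only the 4 Sf1-Cre arrays lie above the floor, and by 1415900_a_at only both controls and Sf1-Cre replicate 4 do.

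KIT is also present on Leydig and mast cells, so lists of their markers are given beside Kit. The 9 Leydig genes on the array had summed intensities of 7727 to 8199 without Cre, 23310 to 28830 in Dhh-Cre and 27560 to 38830 in Sf1-Cre, with 7 of 9 tested genes higher in Dhh-Cre and 8 of 9 in Sf1-Cre (5 and 4 under housekeeping centring). The 9 mast cell genes summed to 1387 to 1608, 1654 to 2222 and 1893 to 2515. Of 5 tested, Cma1, Mcpt4 and Hdc were higher and Gata2 lower in both mutant groups, and Cpa3 was not called. Under housekeeping centring 0 of the 5 were called as higher and 1 as lower in each group. The group means of Mcpt4 and of the defining mast cell genes Tpsb2, Tpsab1, Fcer1a and Ms4a2 lay under the floor in all groups. The mean of Cma1 did so in the controls. The part of either cell type in the Kit values was not tested.

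Gfra1 encodes the GPI-anchored receptor to which GDNF binds. Probe set 1439015_at read 132 and 61.1 in the controls, 14.4 and 11.5 in Dhh-Cre, and 14.1, 13.4, 12.3 and 13.3 in Sf1-Cre. The 6 mutant arrays all lay under the floor, and the 2 controls differed from each other by more than the mutants did. The gene was at least 5.60-fold lower in both groups, with fitted log2 fold changes of -2.76 ± 0.28 SE in Sf1-Cre (limma adjusted p = 4.299e-05) and -2.80 ± 0.33 SE in Dhh-Cre (limma adjusted p = 9.413e-05). Probe set 1421973_at, at 19 and 21.4 in the controls, was at least 1.26-fold lower in both groups, reading 4.05 and 4.79 in Dhh-Cre and 5.28 to 8.46 in Sf1-Cre. Only the control arrays took 1439015_at and 1421973_at past the filter, so both could hardly fail to be lower. In the comparison of both mutants, 1439015_at gave 0.05 (95% interval -0.61 to 0.70) with both groups under the floor. The last Gfra1 probe set, 1450440_at, stayed between log2 1.14 and 1.46 on all 8 arrays and was not tested.

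Id4 encodes an inhibitor of DNA binding found in spermatogonia with stem cell activity. Probe set 1450928_at read 420 and 526 in the controls, 169 and 257 in Dhh-Cre, and 149, 141, 86.3 and 66.1 in Sf1-Cre. The 3 groups did not overlap. It fell 4.49-fold in Sf1-Cre (log2 fold change -2.17 ± 0.36 SE, limma adjusted p = 0.000667) and 2.26-fold in Dhh-Cre (-1.17 ± 0.41 SE, limma adjusted p = 0.0292). The Dhh-Cre call was lost without control replicate 1 (-1.34, adjusted p = 0.0631), control replicate 2 (-1.01, adjusted p = 0.137) or Dhh-Cre replicate 1 (-0.87, adjusted p = 0.158).

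The second Id4 probe set, 1423259_at, read 822 and 573 in the controls, 84.1 and 174 in Dhh-Cre, and 193, 162, 61.7 and 54.7 in Sf1-Cre. It fell 6.77-fold in Sf1-Cre (-2.76 ± 0.57 SE, limma adjusted p = 0.00233) and 5.67-fold in Dhh-Cre (-2.50 ± 0.66 SE, limma adjusted p = 0.00797). In Dhh-Cre the call was lost without control replicate 1 (-2.24, adjusted p = 0.0543) or Dhh-Cre replicate 1 (-1.98, adjusted p = 0.0567). By both probe sets, Sf1-Cre replicates 3 and 4 held the lowest Id4 of their group, and these are the 2 arrays without rounded values. Without them the Sf1-Cre falls were -1.70 and -1.96, and both were still called. The third probe set, 1423260_at, stayed under the floor on all arrays.

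Zbtb16 encodes a zinc finger repressor needed for stem cell maintenance, and many somatic cells also express it. Probe set 1419874_x_at read 289 and 308 in the controls, 522 and 488 in Dhh-Cre, and 759, 715, 626 and 633 in Sf1-Cre. The groups were ordered control, Dhh-Cre, Sf1-Cre with no overlap. It rose 2.29-fold in Sf1-Cre (1.19 ± 0.15 SE, limma adjusted p = 0.000125) and 1.69-fold in Dhh-Cre (0.76 ± 0.17 SE, limma adjusted p = 0.00346) on the deposited scale, but gave -0.50 and -0.93 under housekeeping centring and 0.29 and -0.10 under gene-wise centring. Its x suffix marks a probe set that can also bind other transcripts.

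Probe set 1439163_at of Zbtb16 ordered the mutant groups the other way. It read 15.8 and 15.4 in the controls, 43.6 and 31.5 in Dhh-Cre, and 26.4, 30.3, 20.1 and 22.5 in Sf1-Cre. It was at least 2.31-fold higher in Dhh-Cre (1.25 ± 0.24 SE, limma adjusted p = 0.00173) and at least 1.54-fold higher in Sf1-Cre (0.65 ± 0.21 SE, limma adjusted p = 0.0208), values that turned to -0.45 and -1.04 under housekeeping centring. The Sf1-Cre call was lost without control replicate 1 (0.67, adjusted p = 0.0810) or control replicate 2 (0.64, adjusted p = 0.0966). The log2 difference of both probe sets was 4.79 ± 0.17 (SD, n = 4) in Sf1-Cre and 3.77 ± 0.26 (SD, n = 2) in Dhh-Cre, without overlap (exact permutation p = 0.0667, the smallest possible). Neither probe set was called between the mutant groups (0.43 and -0.59, limma adjusted p = 0.0719 and 0.0834). The last Zbtb16 probe set, 1427638_at, lay under the floor on every array, with log2 means of 3.23, 3.07 and 2.71 in control, Dhh-Cre and Sf1-Cre.

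Foxo1 encodes the forkhead factor that AKT signalling keeps out of the nucleus, and it too is widely expressed. Probe set 1416983_s_at read 229 and 244 in the controls, 807 and 790 in Dhh-Cre, and 804, 779, 820 and 836 in Sf1-Cre. The 6 mutant arrays spanned a narrow range, and the mutant groups overlapped. It rose 3.42-fold in Sf1-Cre (1.78 ± 0.13 SE, limma adjusted p = 6.735e-06) and 3.38-fold in Dhh-Cre (1.76 ± 0.15 SE, limma adjusted p = 1.872e-05) on the deposited scale, and gave 0.08 and 0.06 without a call under housekeeping centring. Between the mutant groups the difference was 0.02 (95% interval -0.28 to 0.32).

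The 2 other tested Foxo1 probe sets rose more in Dhh-Cre. Probe set 1416982_at read 18.6 and 23.4 in the controls, 109 and 76.5 in Dhh-Cre, and 47.1 to 55.8 in Sf1-Cre. It rose 4.38-fold in Dhh-Cre and 2.50-fold in Sf1-Cre, the latter turning to -0.37 under housekeeping centring. Sf1-Cre was 1.75-fold below Dhh-Cre (-0.81 ± 0.19 SE, limma adjusted p = 0.0217). That call was lost in 3 of 19 alternatives, among them without Dhh-Cre replicate 1 (-0.55) and with the replicate block (-0.88, limma adjusted p = 0.0798). Probe set 1416981_at was at least 2.28-fold higher in Dhh-Cre and at least 1.58-fold higher in Sf1-Cre, the latter turning to -0.26 under housekeeping centring, and was not called between them (-0.52, limma adjusted p = 0.177). Probe set 1456529_at stayed under the floor.

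Between the mutant groups, then, only 3 of 15 tested member probe sets were called. Kit and Kitl were higher by 1 probe set each and Foxo1 lower by 1 in Sf1-Cre, where 21.4% of all probe sets were called, 10.2% higher and 11.1% lower. The count ran from 1, without Dhh-Cre replicate 1, to 7, without Sf1-Cre replicate 1. The Kit probe set among the 3 passed the filter through the Sf1-Cre arrays alone.

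The other genes of each pathway were read from lists of 1 probe set per gene, the brightest. Their counts stand beside shares over all probe sets of 45.9% higher and 31.6% lower in Sf1-Cre. In Dhh-Cre these shares were 49.1% and 28.8%. In the GDNF family, Gfra2, Gfra4 and Artn fell with Gfra1, while Ncam1 and Gas1 rose on the deposited scale. Gfra2, the receptor of neurturin, read 3090 and 2220 in the controls, 34.2 and 39.0 in Dhh-Cre, and 128, 88.6, 81.6 and 66.3 in Sf1-Cre. It fell 29.6-fold in Sf1-Cre (-4.89 ± 0.27 SE, limma adjusted p = 1.774e-06) and 71.7-fold in Dhh-Cre (-6.16 ± 0.31 SE, limma adjusted p = 2.165e-06). The step between the mutant groups, 1.28 ± 0.27 SE, was also called (limma adjusted p = 0.0141), with Sf1-Cre higher. Its 3 other tested probe sets gave -2.25 to 0.04 in Sf1-Cre and -2.23 to -0.22 in Dhh-Cre, so the size of the fall rests on 1 probe set.

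Artn, the gene of the ligand artemin, read 175 in both controls, 8.17 and 9.41 in Dhh-Cre, and 53.8, 23.0, 20.9 and 16.3 in Sf1-Cre. It fell 6.88-fold in Sf1-Cre and was at least 11-fold lower in Dhh-Cre. Gfra4, the receptor of persephin, was at least 2.60-fold and 2.65-fold lower. Of the 6 tested genes of the family, 4 were lower in each mutant group (Gfra1, Gfra2, Gfra4, Artn). Of these, Gfra1 passed the filter through the control arrays alone. The Gfra4 mean lay under the floor in both mutant groups and the Artn mean in Dhh-Cre. The other 2, Gas1 and Ncam1, encode a protein related to the GFRA receptors and an alternative receptor for GDNF. Gas1 rose 10.8-fold and 8.87-fold. Ncam1 rose 8.85-fold in Sf1-Cre and 2.65-fold in Dhh-Cre, the latter turning to -0.29 under housekeeping centring, and its 2 other tested probe sets gave -2.06 and 2.07 in Sf1-Cre, and -3.46 and -0.38 in Dhh-Cre. Gdnf, Nrtn, Pspn, Gfra3 and the signalling receptor Ret did not pass the filter.

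The Id genes split. Id4 fell, whereas Id3 was at least 10.2-fold higher in Sf1-Cre (4.10 ± 0.23 SE, limma adjusted p = 2.006e-06) and at least 9.33-fold higher in Dhh-Cre, from 9.81 and 9.30 in the controls to 116 to 202 in Sf1-Cre and 135 and 165 in Dhh-Cre. Id1 was at least 4.77-fold and 2.95-fold higher. Id2 rose 2.79-fold and 2.10-fold on the deposited scale, values that turned to -0.22 and -0.62 under housekeeping centring. The E protein gene Tcf12, whose product ID proteins bind, rose 5.25-fold and 5.21-fold by the brightest probe set, though 1 of its 3 others gave -0.95 and -0.44. In all, 5 of 6 tested genes of this list were higher and 1, Id4, was lower in each mutant group, with a median log2 fold change of 1.94 in Sf1-Cre and 1.73 in Dhh-Cre. Under housekeeping centring 3 were higher and 2 lower in Sf1-Cre, and 2 and 2 in Dhh-Cre.

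**Figure D4:**
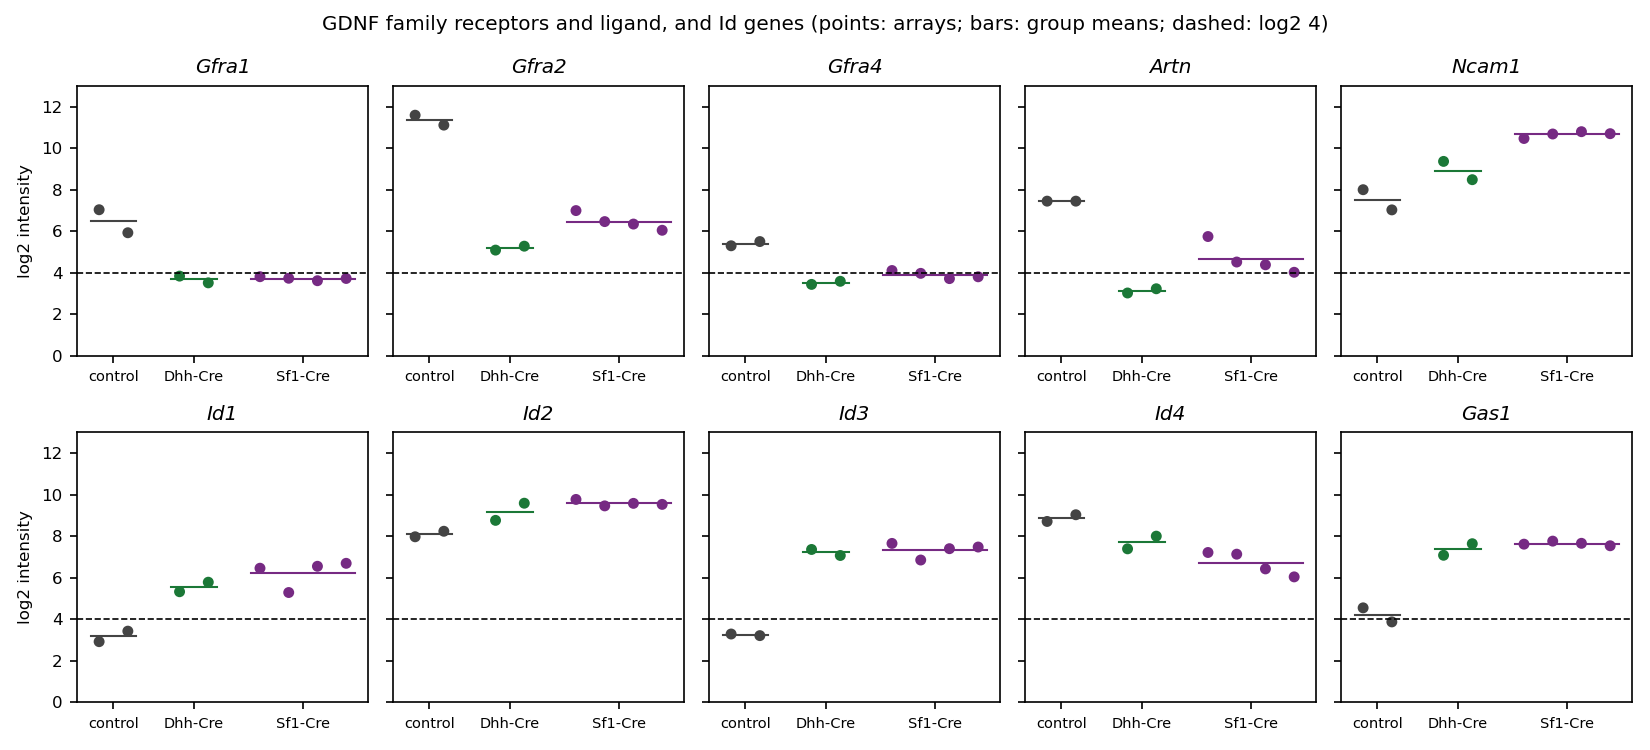
Log2 intensity (y) on each array by group (x) for the GDNF family genes Gfra1, Gfra2, Gfra4, Artn, Ncam1 and Gas1 and for Id1 to Id4, by the brightest probe set, with bars for group means and the floor of log2 4 dashed. Gfra1, Gfra2, Gfra4, Artn and Id4 lie below the controls in all 6 mutant arrays, and the other 5 lie above them on the deposited scale. Under housekeeping centring Id2 turned in both groups and Ncam1 in Dhh-Cre.

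Of the genes that act downstream of KIT, most rose on the deposited scale. Of 16 tested, with Kit and Kitl among them, 13 were higher and 2 lower in Sf1-Cre (median 1.74), and 13 and 2 in Dhh-Cre (median 1.56). Under housekeeping centring those counts became 5 and 4, and 5 and 5. Pik3r1, the regulatory subunit gene of PI3-kinase, rose 34.7-fold in Sf1-Cre (5.12 ± 0.17 SE, limma adjusted p = 2.982e-07) and 15.4-fold in Dhh-Cre. The adaptor gene Grb2 rose 7.22-fold and 7.15-fold, and Mitf, a transcription factor gene downstream of KIT in several lineages, 5.50-fold and 5.33-fold. Cbl, an E3 ligase that marks KIT for degradation, fell 2.07-fold and 2.92-fold, and Sh2b3, an adaptor that dampens KIT signalling, fell 2.08-fold and 2.65-fold.

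In the FOXO and AKT list, 8 of 13 tested genes were higher and 3 lower in Sf1-Cre (median 0.89), and 9 and 3 in Dhh-Cre (median 1.17). Housekeeping centring gave 2 higher and 8 lower in Sf1-Cre, and 2 and 6 in Dhh-Cre. Akt1, a kinase that phosphorylates FOXO1, rose 5.66-fold and 5.93-fold, and Sgk1, a related kinase, 6.77-fold and 5.16-fold. Pdpk1, the kinase that activates both, fell 25.7-fold and 15.7-fold by its brightest probe set, with -0.73 and -0.56 by the other. Foxo3 gave 0.89 and 1.07 and Foxo4 1.27 and 1.31 on the deposited scale, called as higher, but all 4 values were negative under housekeeping centring.

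Most other ligand genes of the niche rose with Kitl on the deposited scale. Of 15 tested genes of that list, 11 were higher and 2 lower in each mutant group, with medians of 2.88 and 2.38, and 10 and 7 were still higher under housekeeping centring. The list also holds Cyp26b1, an enzyme that breaks down retinoic acid and no ligand, which is 1 of the 11 in Dhh-Cre and was not called in Sf1-Cre. Igf1 rose 24.6-fold in Sf1-Cre and 27.4-fold in Dhh-Cre. Wnt6 rose 20.4-fold and 19.8-fold, the chemokine gene Cxcl12 16.1-fold and 13.6-fold, and Bmp4 was at least 2.54-fold and 2.40-fold higher. The 2 that were lower were Fgf9, at least 1.30-fold in each group, and Nrg3, at least 2.69-fold.

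These shifts came with large shifts in the markers of whole cell classes on the deposited scale. All 16 spermatid genes were lower in Sf1-Cre and 15 in Dhh-Cre, and their summed intensity was 88390 to 94470 in the controls, 1382 to 12900 in Dhh-Cre and 1445 to 6693 in Sf1-Cre. Granulosa genes, 17 on the array, summed to 4846 to 4890, 15140 to 15710 and 20370 to 28370, with 12 of 14 tested higher in each mutant group. Sertoli genes, 18 on the array, summed to 28090 to 29500, 53450 to 55030 and 35660 to 40070, with Amh under the floor throughout. The macrophage sum was 11940 to 16110, 27080 to 27590 and 33730 to 38960. The 13 housekeeping genes themselves summed to 28580 to 30240, 51930 to 53400 and 51950 to 56870. Under housekeeping centring 3 of 17 tested Sertoli genes were higher and 11 lower in Sf1-Cre, and 3 and 6 in Dhh-Cre. Granulosa genes then held 10 higher and 2 lower in each group, and macrophage genes 9 and 1. The part of these shifts in the rises of Kitl, Kit, Foxo1 and Zbtb16 and in the falls of Gfra1 and Id4 was not tested.

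Among other genes of undifferentiated spermatogonia, the direction differed from gene to gene, as it did among the members. Of 21 tested, the members Gfra1, Id4, Zbtb16 and Foxo1 included, 9 were higher and 7 lower in Sf1-Cre (median 0.56), and 12 and 4 in Dhh-Cre (median 1.20). Under housekeeping centring these became 1 and 11, and 2 and 9. On the deposited scale 45.9% of all probe sets were higher and 31.6% lower in Sf1-Cre, so the mix there is near the general one. In Dhh-Cre the shares over all probe sets were 49.1% and 28.8%. Lhx1, a target of GDNF signalling, was at least 2.97-fold lower in both groups, and Pou5f1 at least 3.75-fold lower. By group mean, Lhx1 and Pou5f1 reached the floor only in the controls. Tspan8, a surface protein used to enrich stem cells, rose 9.05-fold and 7.83-fold. The GDNF-responsive genes Etv5 and Bcl6b were each called in 1 group, as higher on the deposited scale. Etv5 gave 1.55 in Dhh-Cre (limma adjusted p = 0.0201) and 0.92 without a call in Sf1-Cre. Bcl6b gave 1.07 in Sf1-Cre (limma adjusted p = 0.00714) and 0.67 without a call in Dhh-Cre. Each of these values was negative under housekeeping centring.

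Genes of differentiating spermatogonia held 6 higher and 5 lower of 15 in Sf1-Cre and 11 higher and 1 lower in Dhh-Cre. Under housekeeping centring these became 3 and 11, and 4 and 6. Dmrt1, the gene deleted by design, is on this list, among the 5 lower in Sf1-Cre and the 11 higher in Dhh-Cre. Stra8, which retinoic acid induces, rose 2.94-fold in Sf1-Cre, a value that turned to -0.14 under housekeeping centring, and 6.31-fold in Dhh-Cre. Dmrtb1, which governs the exit from mitosis, fell 3.08-fold and 8.69-fold. Ccnd2 rose 11.7-fold and 11.6-fold and Kctd14 19.5-fold and 10.2-fold, by the brightest probe sets. The log2 fold changes of the 6 other tested Ccnd2 probe sets were 0.34 to 2.8 in Sf1-Cre and 0.60 to 2.8 in Dhh-Cre. Those of the 3 others of Kctd14 were 0.61 to 4.1 and 0.94 to 3.3.

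The spermatogonial lists also separated the mutant groups, as other lists did. Of 17 tested Sertoli genes, 10 were lower in Sf1-Cre than in Dhh-Cre and 0 higher, and of 10 peritubular cell genes 4 and 0. Of 14 granulosa genes, 1 was lower and 6 were higher. Of the 21 undifferentiated genes, 7 were lower in Sf1-Cre than in Dhh-Cre and 0 higher by limma. The 7 are Lin28a, Sall4, Pou5f1, Taf4b, Elavl2, Pou3f1 and Mcam. Over all probe sets, 11.1% were lower and 10.2% higher in this comparison. At an unadjusted p under 0.05, 8 of the 21 were lower and 1, Zbtb16, was higher. Lin28a, an RNA-binding protein gene of undifferentiated cells, was 2.75-fold lower (-1.46 ± 0.29 SE, limma adjusted p = 0.0120), and Sall4, a transcription factor gene, 3.33-fold lower (-1.73 ± 0.39 SE, limma adjusted p = 0.0189). Of the 15 differentiating genes, 9 were lower, with Stra8 2.15-fold lower (limma adjusted p = 0.00669), and 3 higher, Kit, Dmrtb1 and Kctd14. The 9 include Dmrt1, the deleted gene itself. The Kit value here is that of 1452514_a_at, which passed the filter through the Sf1-Cre arrays alone, so its direction is not read against the list. By 1415900_a_at Kit gave 0.96 and was not called (limma adjusted p = 0.0964). Of 10 genes of germ cells at large, only Ddx25 was called between the mutant groups, as higher in Sf1-Cre, and Ddx4 gave 0.16 (95% interval -0.65 to 0.97). The median of these 10 was -0.34, beside -0.32 for the 21 undifferentiated genes. At limma's unadjusted p under 0.05, 3 of the 10 were lower and 1 higher. Actb ratios, 9.51 and 13.6 in Dhh-Cre and 9.45 to 13.6 in Sf1-Cre, overlapped.

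The genes whose profile over the 8 arrays lay closest to each member were found by the root mean square (RMS) difference of centred log2 values, among 16072 candidates. For Foxo1, by 1416983_s_at, they were Sh3bgrl (0.0316), Cstb (0.0583) and Gnai1 (0.0686). For Kitl, by 1415855_at, they were Arhgef17 (0.112), Plxdc2 (0.127) and Kdm5d (0.142), and for Zbtb16, by 1419874_x_at, Copb1 (0.0873), Myo5a (0.0920) and Tmem39a (0.0988). For Gfra1, by 1439015_at, they were Zfand3 (0.180), Epm2aip1 (0.201) and Cdc34 (0.213), and for Id4, by 1450928_at, Tmem231 (0.213), Depdc5 (0.221) and Syce3 (0.224). Kit, by 1452514_a_at, had no neighbour as near, with Nppc at 0.338, Car12 at 0.359 and Hspa12a at 0.368. For Gdnf, whose levels were under the floor on all arrays but Sf1-Cre replicate 3, they were Yeats2 (0.105), Mtx3 (0.135) and Mvb12a (0.135). The 8 points of each profile fall into 3 groups, so these values describe the steps between groups as much as single arrays.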

How the data were processed

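Total RNA of 8 whole testes was labelled with biotin and hybridized to 1-colour oligonucleotide arrays, 1 per sample. The deposited intensity values were made by the authors with GCRMA, per the submitters' processing notes, and are on a linear scale, per the values themselves. The sources used here do not give its version, its settings or the positions of the probes. Detection calls were not used here. Of 45101 probe sets, 34958 carry 1 symbol, 932 several and 9211 none listed, and 34754 matched GRCm38.p6 annotation by Entrez identifier.

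The log2 of each value was taken with nothing added. A probe set was tested if at least 2 arrays reached log2 4. Means of the 3 groups were fitted to all 8 arrays with limma (version 3.58.1; 5 residual and 3.008 prior degrees of freedom), run under R 4.3.3, with version 1.17.8 of data.table, and 2-sided p-values were adjusted by Benjamini-Hochberg over 25791 probe sets, with adjusted p under 0.05 as called. SE are limma's. Where 1 group mean is under log2 4, the fold is given as "at least", with each of its arrays raised to 4, and none is given where both are. Figures used matplotlib 3.10.9 and pandas 2.3.3.

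Members and lists were chosen with earlier results of these data known. Named are all members, up to 4 genes of each list, by lowest p of Sf1-Cre against control, the 3 genes most like each member, and genes that spell out small counts, the last chosen after their values were seen. Others named, such as Lin28a, Sall4, Bmp4 or Foxo3, were also chosen then. Alternatives were quantile normalization, housekeeping centring, other filters and floors, another moderation, array weights, fits of only the 2 groups compared, 1 probe set per gene, a replicate block and leaving out each array. Gene-wise housekeeping centring and 2 fits without named sets of arrays were chosen after seeing the data. The script was tested on simulated data. Few arrays limit the precision of every value.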

Additional observations from a re-analysis of the deposited data

Results flagged for a closer look

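Among the 4 Sf1-Cre arrays, Gdnf by 1419080_at stood apart on replicate 3, at log2 4.07 against 3.43 on the nearest other array. That gap is 0.891 of the whole range of the group, above Dixon's 95% critical value for 4 samples. It was the only one among 20 member probe sets examined in this group, and chance flags about 1 in 20. The gene was not tested, since only that array reached the floor.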

How the results depend on the processing

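Between the mutant and control arrays, 14 member probe sets were called in each comparison, and the count ran from 11 to 15 in Sf1-Cre and from 10 to 14 in Dhh-Cre when 1 array was left out. With 1 probe set per gene the counts were 6 and 5, as fewer probe sets were tested, and with a filter at log2 6 the Dhh-Cre count was 9. Between the mutant groups the count of 3 ran from 1 to 7 when 1 array was left out, and was 7 with array weights, 1 at a 2-fold minimum and 1 without the 3 arrays that have Spink8, an epididymal gene, at log2 10 or above.

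Log2 fold changes that changed sign were as follows. Housekeeping centring gave Foxo1 -0.26 (1416981_at) and -0.37 (1416982_at) and Zbtb16 -0.50 (1419874_x_at) and -1.04 (1439163_at) in Sf1-Cre, and Zbtb16 -0.93 and -0.45 and Kit -1.34 (1452514_a_at) in Dhh-Cre. Gene-wise housekeeping centring gave Zbtb16 -0.25 (1439163_at) in Sf1-Cre, and Zbtb16 -0.10 (1419874_x_at) and Kit -0.50 in Dhh-Cre. Between the mutant groups it gave Foxo1 -0.018 (1416983_s_at). There, leaving out the 2 arrays with no rounded values gave Foxo1 -0.013 and Id4 0.55 (1423259_at), and leaving out the 3 Spink8 arrays gave Foxo1 0.0037 (1416981_at). With 1 array left out, Id4 by 1423259_at ran from -0.78 to 0.27 and Gfra1 by 1439015_at from -0.12 to 0.21. Apart from the centrings, whose construction moves all values, the cause was not tested.

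Deviations from group means of same-numbered arrays correlated from -0.177 to 0.258. In a group of 2 arrays the deviations mirror each other, so few of these values are independent. They do not settle whether the replicate numbers pair the samples. With the number as a replicate block, 15, 14 and 2 member probe sets were called, with Foxo1 (1416983_s_at) at -0.013 and Id4 (1423259_at) at 0.55 between the mutant groups. Over all member probe sets and alternatives, 746 values kept direction and call, 32 lost the call, 19 gained it and 19 changed sign. Levels near log2 4 limit the folds of Kit, Gfra1 and Gdnf.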
